A study of Caenorhabditis elegans with 5 samples.

Results

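Tubulin genes encode the alpha and beta subunits that pair and polymerise into microtubules. *C. elegans* neurons mix isotypes that are used widely with isotypes known from particular cells. The 10 genes described here were taken by name from a list of alpha- and beta-tubulin genes, and all 10 were found among the 42048 genes of the deposited table. They fall into a touch pair (mec-7 and mec-12), 5 broad genes (tba-1, tba-2, tba-4, tbb-1 and tbb-2) and 3 ciliary genes (tba-6, tba-9 and tbb-4). The class names do not mean that a gene is confined to those cells. The beta-tubulin MEC-7 and the alpha-tubulin MEC-12 build the unusually wide microtubule bundles of the touch receptor neurons, and MEC-12 is the alpha-tubulin whose acetylation is best known in the worm. TBA-1, TBA-2, TBB-1 and TBB-2 are the general isotypes of dividing cells and many tissues, whereas TBA-6, TBA-9 and TBB-4 are known from the cilia of sensory neurons.

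RNA was sequenced from neurons sorted by FACS from day 1 adults grown at 16 °C, in 3 libraries from thoc-5(wy822) mutants and 2 from wildtype animals. Both groups carry edIs6, known as an integrated transgene that drives GFP from unc-119 sequence in neurons. THOC-5 belongs to the THO complex, which prepares new messenger RNA for nuclear export, and the design compares mutant with wildtype neurons. Nothing in the labels ties the libraries of a group to separate cultures and nothing in them describes the wy822 lesion, so p-values measure the spread between these libraries, which may be technical. Values are normalised read counts (reads divided by 1 size factor per library by the authors), errors are SDs over 3 mutant and 2 wildtype libraries unless called SE, and log2 fold changes give mutant minus wildtype after 1 was added to each normalised count, a choice that matters for genes near 0. A gene was called at an adjusted p below 0.05 in limma, with Benjamini-Hochberg adjustment over the 13787 genes that reached 10 normalised counts in at least 2 libraries. All 10 tubulin genes passed this filter on low values.

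The libraries differed in their content of neuronal transcripts. Reads counted on genes came to 6795756 to 8685349 in the mutant libraries and to 10307701 and 10227501 in the wildtype libraries. A list of 16 pan-neuronal genes took 2.19%, 1.51% and 2.38% of reads in the mutant libraries, against 0.512% and 0.0476% in the wildtype libraries, with 1 of the 16 at 0 in wildtype replicate 2 and none at 0 elsewhere. Lists for muscle (0.146% to 0.317% against 0.825% and 1.71%), epidermis (0.222% to 1.16% against 8.97% and 5.99%), intestine (0.0460% to 0.198% against 0.767% and 0.627%) and germline (0.0184% to 0.0455% against 0.331% and 0.111%) ran the other way. Of the 14, 12, 11 and 12 genes of these lists, at most 2 were at 0 in any mutant library and none in wildtype. Most of the epidermis sum in the wildtype libraries came from the genes of that list named col. These were also the 5 of its 11 tested genes called lower, beside 5.92% of all tested genes. dpy-13, rol-6 and dpy-4 of the same list had positive log2 fold changes (0.39, 2.01 and 0.35), and none of the 3 was called. Of the 14 muscle genes, 9 were called lower, while myo-1 and myo-2 had log2 fold changes of 0.03 and 0.35. Mutant replicate 2 held 4133 normalised counts of myo-1 (wildtype 1054 and 1032) and 5052 of myo-2 (wildtype 986 and 1510). Wildtype replicate 2 therefore stood apart with the lowest summed neuronal share. Fold changes of the tubulin genes and differences of their ratios are given with and without it. The neuronal sum rested mostly on egl-21, egl-3 and ida-1. In wildtype replicate 2, rab-3 (270 against 228 normalised counts), unc-11 (272 against 102) and unc-64 (193 against 171) were higher than in wildtype replicate 1. All other genes of the pan-neuronal list were lower there. unc-64 and snb-1 differed least between genotypes (log2 fold changes 0.27 and 0.74). The mutated gene, listed as Y32H12A.2, had 78.3, 34.6 and 12.7 normalised counts in the mutant libraries and 154 and 122.2 in wildtype (log2 fold change -2.03, SE 0.90, adjusted p = 0.148 in limma).

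**Figure D1:**
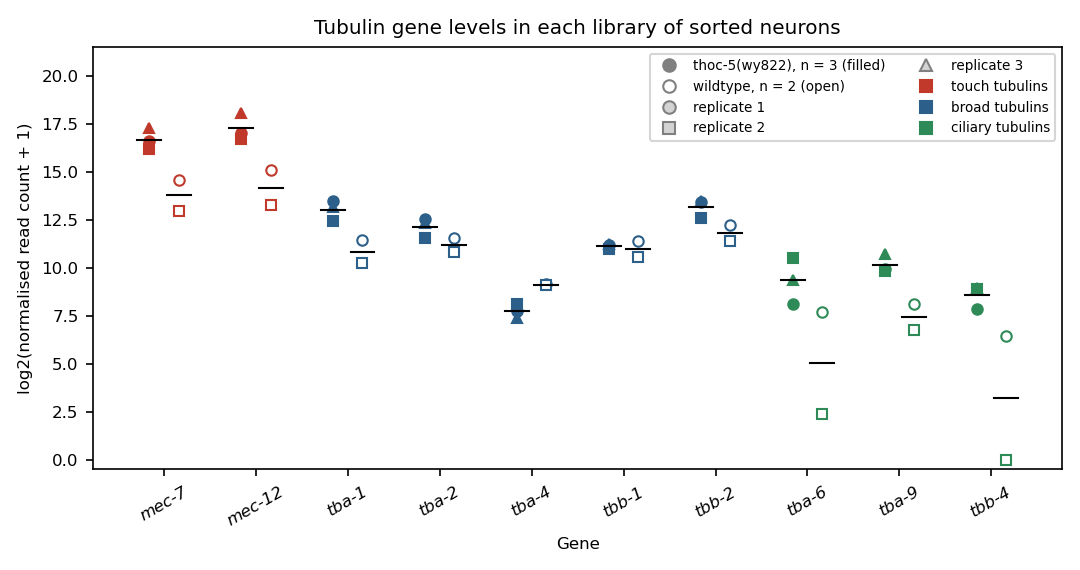
Level of each tubulin gene in each library, as log2(normalised read count + 1); filled symbols are the 3 thoc-5(wy822) libraries, open symbols the 2 wildtype libraries, symbol shapes the replicates, and black bars the group means. The touch pair lies highest in every library, and wildtype replicate 2 is at 0 for tbb-4.

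The touch isotypes were the most abundant tubulin transcripts in every library. mec-7 (WBGene00003171, WBcel235 chromosome X, 7774856 to 7776689, minus strand) had 100916, 73419 and 156762 normalised counts in mutant replicates 1 to 3, against 24446 and 7973 in wildtype replicates 1 and 2. Every mutant library was above both wildtype libraries. The log2 fold change of mec-7 was 2.91 (SE 0.93), which did not pass the test (adjusted p = 0.0757 in limma), and 2.10 without wildtype replicate 2.

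mec-12 (WBGene00003175, WBcel235 chromosome III, 3131574 to 3139234, minus strand) had 130988, 107830 and 275750 normalised counts in the mutant libraries and 34532 and 9859 in the wildtype libraries. The groups again did not overlap, and mutant replicate 3 and wildtype replicate 2 were the extremes for both touch genes. Its log2 fold change was 3.09 (SE 1.06, adjusted p = 0.0861 in limma), and 2.19 without wildtype replicate 2. By reads, mec-12 ranked 2, 6 and 1 among all genes in mutant replicates 1 to 3 and 34 and 114 in wildtype replicates 1 and 2. The touch pair together took 4.02%, 2.39% and 5.11% of all counted reads in the mutant libraries, against 0.656% and 0.164% in wildtype. For single members the exact (Clopper-Pearson) 95% interval of such a share was at most 0.0118 percentage points to either side, which covers counting error only. Exons of mec-12 overlap those of the opposite-strand gene Y53G8B.1 over 76 bases, and because the library kits do not mark strand, reads there cannot be assigned to either gene.

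Among the ciliary isotypes, tba-9 was the 1 tubulin member that passed the test. tba-9 (WBGene00006535, WBcel235 chromosome X, 3252800 to 3256269, plus strand), an alpha-tubulin of ciliated neurons, had 989, 929 and 1660 normalised counts in the mutant libraries, against 278 and 108 in wildtype. It rose by 2.72 on the log2 scale (SE 0.56, adjusted p = 0.0405 in limma), a ratio of group means of 6.17. The call was lost without any 1 mutant replicate (adjusted p = 0.0574 to 0.115) and without wildtype replicate 2, where the log2 fold change was 2.04 (adjusted p = 0.0883); in limma without wildtype replicate 1 it held (adjusted p = 0.00657).

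tba-6 (WBGene00006532, WBcel235 chromosome I, 8994002 to 8998604, plus strand) is the alpha-tubulin known to shape microtubules in male sensory cilia. It had 281, 1472 and 663 normalised counts in the mutant libraries and 206 and 4.25 in wildtype. Mutant replicate 1 lay close to wildtype replicate 1, while wildtype replicate 2 held only 4 reads. The log2 fold change of 4.30 (SE 1.53, adjusted p = 0.0924 in limma) was 1.65 without wildtype replicate 2. Its exons overlap those of F32H2.6 on the opposite strand over 75 bases.

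tbb-4 (WBGene00006538, WBcel235 chromosome X, 9434452 to 9436893, minus strand), a beta-tubulin of cilia, had 233, 474 and 502 normalised counts in the mutant libraries, against 87.2 and 0 in wildtype. A count of 0 in wildtype replicate 2 allows, at a floor of 3 reads, a share of up to 2.93e-05% of its reads, and the wildtype group rests on 100 reads from replicate 1. The ratio of group means was 9.24, and the log2 fold change of 5.35 (SE 1.75, adjusted p = 0.0788 in limma) was 2.12 without wildtype replicate 2. The 3 ciliary genes summed to 0.0261%, 0.0379% and 0.0334% of reads in the mutant libraries and to 0.00635% and 0.00104% in wildtype.

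The broad isotypes differed in direction among themselves, and none of the 5 passed the test. tba-1 (WBGene00006528, WBcel235 chromosome I, 9785781 to 9787624, minus strand) had 11501, 5632 and 9127 normalised counts in the mutant libraries, against 2813 and 1210 in wildtype. This general alpha-tubulin was the member closest to the threshold among those that missed it, with a log2 fold change of 2.18 (SE 0.59, adjusted p = 0.0558 in limma; 1.58 without wildtype replicate 2). tbb-2 (WBGene00006537, WBcel235 chromosome III, 4015910 to 4017627, minus strand), a general beta-tubulin, had 10849, 6256 and 11333 normalised counts in the mutant libraries and 4753 and 2669 in wildtype. The groups did not overlap for either gene; tbb-2 had a log2 fold change of 1.36 (SE 0.56, adjusted p = 0.127 in limma), and 0.95 without wildtype replicate 2.

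For tba-2 and tbb-1 the libraries of the genotypes overlapped. tba-2 (WBGene00006529, WBcel235 chromosome I, 12964674 to 12966795, minus strand) had 5980, 3004 and 5219 normalised counts in the mutant libraries, against 3061 and 1822 in wildtype, and mutant replicate 2 lay below wildtype replicate 1. Its log2 fold change was 0.94 (SE 0.53, adjusted p = 0.233 in limma; 0.57 without wildtype replicate 2). tbb-1 (WBGene00006536, WBcel235 chromosome III, 10740868 to 10742432, minus strand) had 2371, 1998 and 2444 normalised counts in the mutant libraries and 2711 and 1491 in wildtype. The mutant values of tbb-1 sat between those of the wildtype libraries, with a log2 fold change of 0.17 (SE 0.45, adjusted p = 0.811 in limma) that was -0.26 without wildtype replicate 2.

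tba-4 was the 1 member whose mutant libraries were all lower. This alpha-tubulin gene (WBGene00006530, WBcel235 chromosome II, 10918706 to 10920211, plus strand) had 213, 273 and 165 normalised counts in the mutant libraries, against 566 and 542 in wildtype. Its log2 fold change of -1.38 (SE 0.44, adjusted p = 0.0735 in limma) hardly moved without wildtype replicate 2, at -1.41. Summed muscle, epidermis, intestine and germline shares were also lower in every mutant library, by the ranges given above; their part in the tba-4 difference was not tested.

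**Figure D2:**
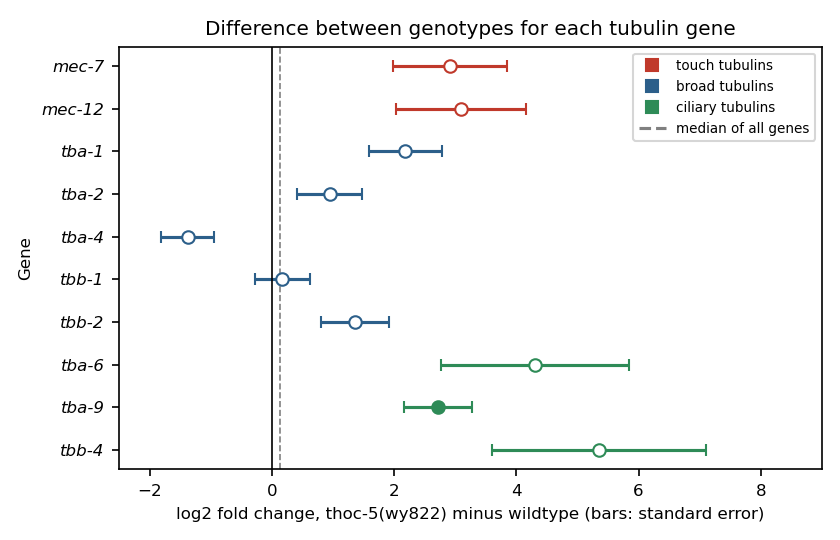
Log2 fold change of each tubulin gene, thoc-5(wy822) minus wildtype (x axis), with its standard error from limma as bars; the filled point is the 1 gene called (tba-9), and the dashed line is the median of all tested genes, 0.13. Touch and ciliary genes lie between 2.72 and 5.35, and broad genes between -1.38 and 2.18.

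Over the 10 genes, limma called 1 higher and 0 lower, where over all tested genes it called 6.97% higher and 5.92% lower. An unadjusted p below 0.05 was reached by 8 of the 10, and by 38.2% of all tested genes. DESeq2 called tba-9, mec-7, mec-12 and tba-1 higher and none lower, against 14.9% of all genes higher and 11.3% lower. The authors' deposited table holds the same 4 tubulin genes at an adjusted p below 0.05, with log2 fold changes of 2.52, 2.64, 2.79 and 2.04. edgeR called 0 of the 10 genes and 0 of all genes, with 5 of the 10 and 3869 of all genes (28.1%) at an unadjusted p below 0.05. Every mutant library lay above both wildtype libraries for 7 of the 10 genes and below them for 1, where the shares of all tested genes were 30.1% and 26.5%. The median log2 fold change was 3.00 for the touch pair, 4.30 for the ciliary genes and 0.94 for the broad genes, against 0.13 for all tested genes. Leaving out wildtype replicate 2 gave medians of 2.15 for the touch pair, 2.04 for the ciliary genes and 0.57 for the broad genes, against 0.15 for all genes. In a bulk sample, fewer cells of a type and less RNA per cell cannot be told apart.

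Levels between genes were compared per length, as reads per kilobase of annotated exon, scaled to the library's counted reads (RPKM), and are listed in the order of their mean over all 5 libraries. mec-12 led with 14376 ± 5698 in mutant and 1473 ± 1287 in wildtype libraries, followed by mec-7 with 9742 ± 3094 and 1104 ± 898. The broad genes followed, in the order tbb-2 (891 ± 350 in mutant and 256 ± 132 in wildtype libraries), tba-1 (839 ± 428 and 139.8 ± 93.9), tba-2 (408 ± 195 and 152 ± 72.9) and tbb-1 (218 ± 53.9 and 149 ± 79.1). Below them came tba-9 (100.4 ± 23.1 and 12.6 ± 9.12), tba-6 (70.7 ± 50.7 and 7.69 ± 10.5), tba-4 (21.9 ± 7.002 and 40.1 ± 6.58) and tbb-4 (34.6 ± 7.65 and 3.10 ± 4.39).

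The order within a genotype differed in places: by group means tbb-4 lay above tba-4 in the mutant, and in wildtype tba-2 and tbb-1 lay above tba-1, and tba-4 above tba-9 and tba-6. The top of this order and the step from tbb-1 to tba-9 held in all 5 libraries. mec-12 exceeded mec-7, mec-7 exceeded tbb-2, and tbb-1 exceeded tba-9 in each of them. Neighbours in between changed places in at least 1 library: tbb-2 exceeded tba-1, tba-1 exceeded tba-2, tba-2 exceeded tbb-1, and tba-9 exceeded tba-6 in 4 of 5. tba-6 lay above tba-4 in all 3 mutant libraries and in 0 of 2 wildtype libraries, and tbb-4 lay above tba-4 in 2 of 3 mutant libraries and in neither wildtype library. Coding sequences of tubulin isotypes are very alike and the read counter is not given in the sources used here, so reads could have been shared or dropped between paralogs, which makes the split between close isotypes such as tba-1 and tba-2 uncertain.

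**Figure D3:**
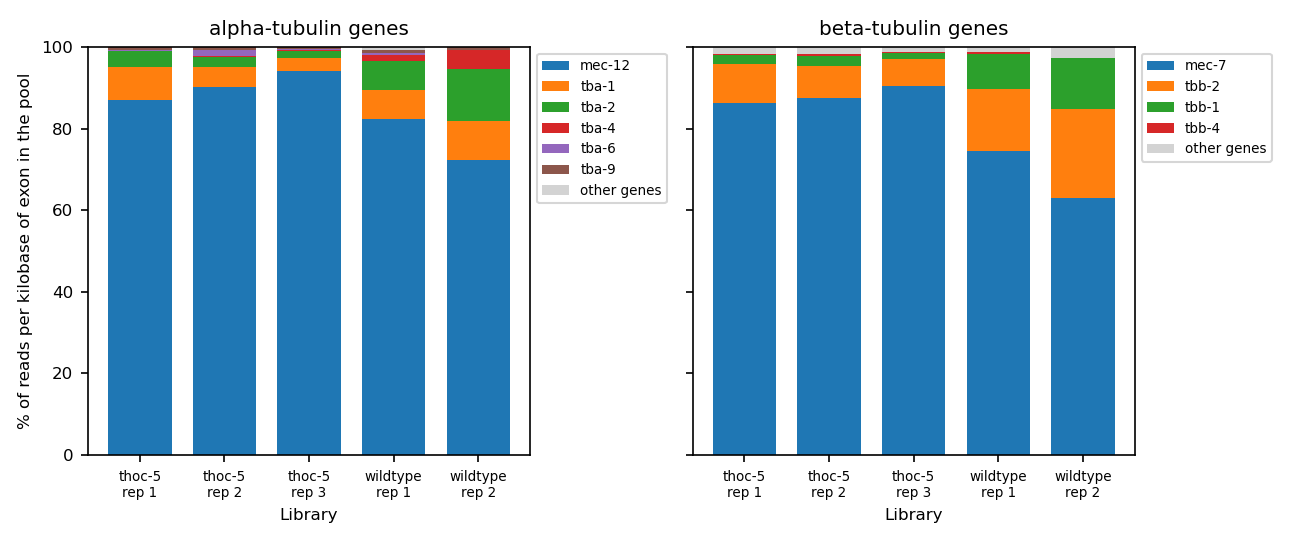
Composition of the alpha-tubulin (left) and beta-tubulin (right) transcripts of each library, as percent of the summed reads per kilobase of exon of the 9 alpha and 6 beta genes. mec-12 and mec-7 make up the largest part of every bar, with lower shares in both wildtype libraries than in any mutant library.

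Touch isotypes formed a larger part of the tubulin transcripts in the mutant libraries. Of the summed reads per kilobase of 9 alpha-tubulin genes, mec-12 made up 87.0%, 90.2% and 94.1% in mutant replicates 1 to 3, against 82.4% and 72.3% in wildtype. mec-7 made up 86.3%, 87.5% and 90.3% of the 6 beta-tubulin genes in the mutant libraries and 74.6% and 63.0% in wildtype. The shares of both genes were higher in every mutant library. tbb-2 held 9.59%, 7.71% and 6.75% of the beta transcripts in the mutant libraries, against 14.98% and 21.8% in wildtype. For tbb-1 the shares were 2.16%, 2.53% and 1.498% in the mutant libraries and 8.80% and 12.5% in wildtype. On the alpha side, tba-2 held 3.82%, 2.42% and 1.71% in the mutant libraries, against 7.03% and 12.9% in wildtype, whereas the tba-1 shares overlapped (8.12%, 5.01% and 3.31% against 7.13% and 9.43%). tba-9 kept a small share in both genotypes, at 0.651%, 0.770% and 0.561% of the alpha transcripts in the mutant libraries and 0.658% and 0.788% in wildtype. Summed alpha over summed beta transcripts was 1.25, 1.38 and 1.64 in the mutant libraries, against 1.24 and 1.05 in wildtype. Muscle, epidermis, intestine and germline lists also took lower shares of reads in every mutant library. Genotype and content of other tissues thus cannot be told apart here, and the part of the latter in these shares was not tested.

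Ratios of isotypes within a library, which hardly depend on how libraries are scaled where counts are high, compared touch, broad and ciliary genes directly in 6 pairs of the same subunit kind. The log2 ratio of mec-7 to tbb-2 was 3.22, 3.55 and 3.79 in the mutant libraries, against 2.36 and 1.58 in wildtype. The groups did not overlap, and the difference was 1.55 (SE 0.36; exact permutation p = 0.1, two-sided, the smallest that 3 against 2 libraries allow; adjusted over the 6 pairs 0.30). Without wildtype replicate 2 the difference was 1.16. For mec-12 to tba-1, the touch and broad alpha-tubulins, the log2 ratio was 3.51, 4.26 and 4.92 in the mutant libraries and 3.62 and 3.03 in wildtype. These overlapped, with a difference of 0.91 (SE 0.57, exact permutation p = 0.3, adjusted 0.36) that was 0.61 without wildtype replicate 2. The part of RNA from muscle, epidermis, intestine and germline in the touch to broad ratios was not tested.

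Neither touch to ciliary nor ciliary to broad alpha-tubulin separated the genotypes. The log2 ratio of mec-12 to tba-9 was 7.05, 6.86 and 7.38 in the mutant libraries, against 6.95 and 6.49 in wildtype (difference 0.37, SE 0.26, exact permutation p = 0.3, adjusted 0.36; 0.14 without wildtype replicate 2). tba-9 to tba-1, ciliary to broad, gave -3.54, -2.60 and -2.46 in the mutant libraries and -3.33 and -3.47 in wildtype (difference 0.54, SE 0.44, exact permutation p = 0.4, adjusted 0.40; 0.47 without wildtype replicate 2). A p that misses the threshold does not show that these ratios are alike. The pairs with tbb-4 turned on the library without a tbb-4 read. mec-7 to tbb-4 gave 8.75, 7.27 and 8.28 in the mutant libraries, against 8.11 and 12.96 in wildtype, a difference of -2.43 (SE 1.89, exact permutation p = 0.3, adjusted 0.36) that was -0.01 without wildtype replicate 2. tbb-4 to tbb-2 gave -5.54, -3.72 and -4.49 in the mutant libraries and -5.75 and -11.38 in wildtype, a difference of 3.98 (SE 2.21, exact permutation p = 0.1, adjusted 0.30) that was 1.17 without that library.

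**Figure D4:**
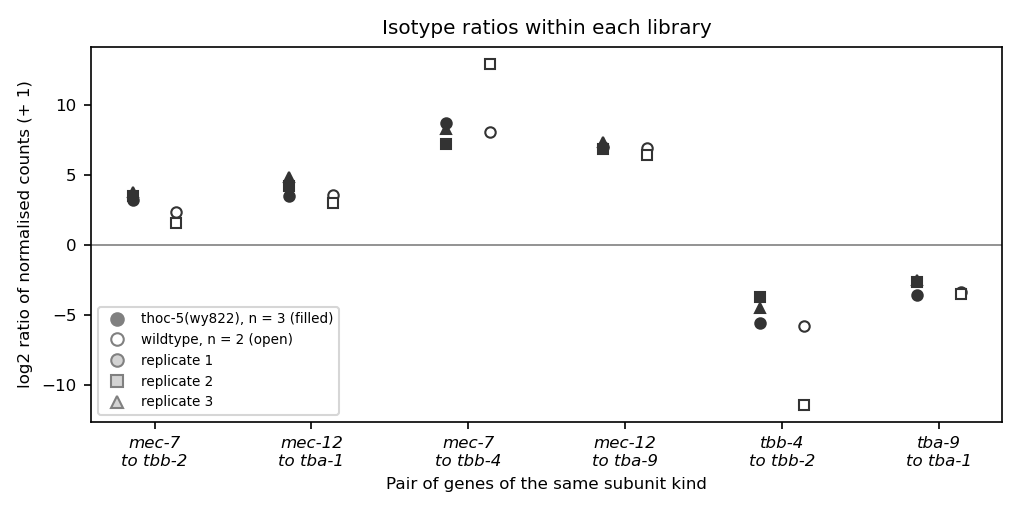
Log2 ratio of normalised counts (with 1 added) for 6 pairs of isotypes in each library; filled symbols are the 3 thoc-5(wy822) libraries and open symbols the 2 wildtype libraries. Genotypes do not overlap for mec-7 to tbb-2 (3.22 to 3.79 against 1.58 and 2.36) and for tbb-4 to tbb-2, where wildtype replicate 2 has no tbb-4 read.

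Set against other neuronal transcripts of the same library, the touch isotypes overlapped between the genotypes. The normalised count of mec-7 over the sum of the 16 pan-neuronal genes was 0.801, 0.642 and 0.777 in the mutant libraries, against 0.531 and 1.54 in wildtype. The largest terms of this sum in every library were egl-21, egl-3 and ida-1. They held 23980, 8402 and 7184 of 46022 normalised counts in wildtype replicate 1, and 1648, 656 and 998 of 5172 in wildtype replicate 2. Ratios to the sum therefore depend mostly on those genes. mec-12 over the same sum was 1.04, 0.942 and 1.37 in the mutant libraries and 0.7503 and 1.91 in wildtype. For both genes every mutant library lay above wildtype replicate 1 and below wildtype replicate 2. The overlap thus came from wildtype replicate 2 alone, the library with the smallest pan-neuronal sum (5172 normalised counts, against 46022 to 201745 elsewhere). Over the sum of 12 touch receptor neuron genes, mec-7 stood at 1.13, 1.18 and 1.24 in mutant and 1.06 and 1.37 in wildtype libraries. Its ratio to this sum overlapped between genotypes, although its level differed by a ratio of group means of 6.81. mec-12 stood at 1.46, 1.74 and 2.17 over the same sum in the mutant libraries, against 1.4999 and 1.70 in wildtype. The 12 genes took 1.555%, 0.817% and 1.499% of reads in the mutant libraries, against 0.256% and 0.0534% in wildtype. A list of tubulin modification genes shares mec-17 with these 12. It took 1.07%, 0.511% and 1.15% in the mutant libraries, against 0.187% and 0.0445% in wildtype. The part of mec-17 in these sums was not examined, so the ratios may depend on few genes.

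Broad isotypes other than tba-1 were lower in every mutant library over the pan-neuronal sum, which follows mostly egl-21, egl-3 and ida-1. The part of RNA from muscle, epidermis, intestine and germline in these ratios was not tested. tbb-2 over the pan-neuronal sum was 0.0861, 0.0547 and 0.0562 in the mutant libraries, against 0.103 and 0.516 in wildtype. tbb-1 was at 0.0188, 0.0175 and 0.0121 in the mutant libraries and at 0.0589 and 0.288 in wildtype. tba-2 and tba-4 likewise did not overlap, while tba-1 did (0.0912, 0.0492 and 0.0452 in the mutant libraries, against 0.0611 and 0.234 in wildtype). Among the ciliary genes, tba-9 over the pan-neuronal sum overlapped (0.00785, 0.00812 and 0.00823 in the mutant libraries, against 0.00605 and 0.0210 in wildtype). Over the sum of 31 genes of sensory cilia, tba-9 was at 0.0541, 0.0186 and 0.0344 in the mutant libraries, all below the 0.0627 and 0.0575 of wildtype. The corresponding ratios of tba-6 and tbb-4 overlapped between genotypes.

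**Figure D5:**
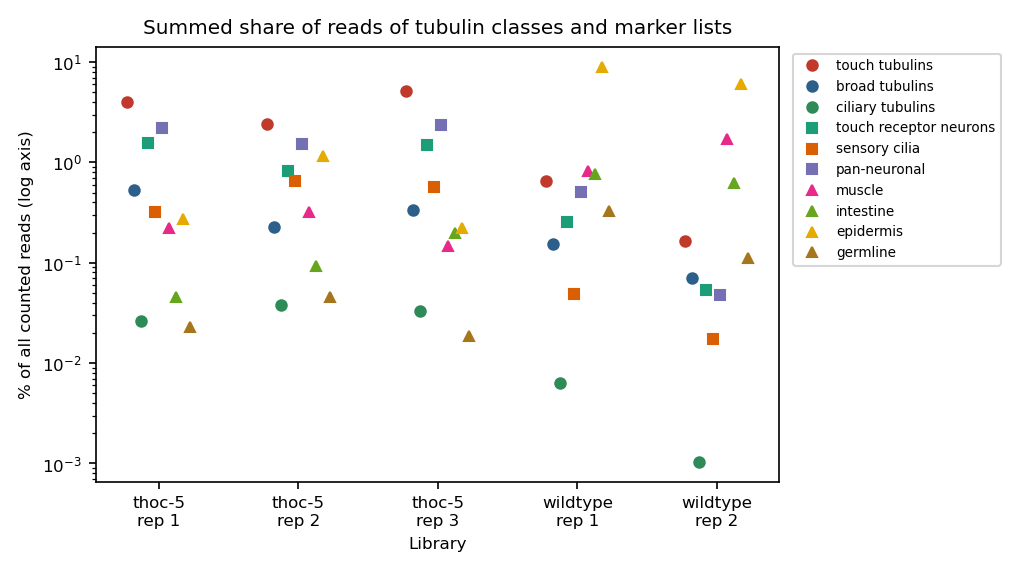
Percent of all counted reads (log axis) taken in each library by the touch, broad and ciliary tubulins (circles), neuronal lists (squares) and lists of other tissues (triangles). Tubulin and neuronal lists are highest in the 3 thoc-5(wy822) libraries, and muscle, epidermis, intestine and germline lists in the 2 wildtype libraries.

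Of 6 other tubulin genes, ben-1 rose. ben-1 (WBcel235 chromosome III, 3537642 to 3541639, minus strand), the beta-tubulin through which benzimidazole drugs act, had 2480, 1578 and 2120 normalised counts in the mutant libraries, against 322 and 270 in wildtype. It rose by 2.78 on the log2 scale (SE 0.41, adjusted p = 0.0382 in limma), and its 2 wildtype libraries lay close together, so the value without wildtype replicate 2 was 2.65. The call was lost there (adjusted p = 0.0561) and without mutant replicate 1 or 3 (0.0913 and 0.106). tba-5, an alpha-tubulin of cilia, had 14, 16 and 30 reads in the mutant libraries and 0 in both wildtype libraries, at least 13.1-fold higher against a floor of 3 reads over the wildtype group. It passed the filter only through the mutant libraries, so limma's call of it (adjusted p = 0.0473, and 0.0607 with no filter) is given as a description. tbg-1, the gamma-tubulin gene that seeds microtubules, had 89.3, 166.3 and 92.6 normalised counts in the mutant libraries, against 365 and 167 in wildtype (log2 fold change -1.14, adjusted p = 0.206 in limma; -1.71 without wildtype replicate 2). tbb-6 averaged 226 ± 105 normalised counts in mutant and 156 ± 42.0 in wildtype libraries, and tba-7 26.5 ± 12.7 and 18.7 ± 20.4; both overlapped, and their log2 fold changes of 0.47 and 0.94 were 0.19 and -0.41 without wildtype replicate 2. tba-8 had 65.8, 2.23 and 32.2 normalised counts in the mutant libraries and 259 and 0 in wildtype (log2 fold change 0.26, adjusted p = 0.952; -3.75 without wildtype replicate 2).

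The counts for genes that work on microtubules stand beside 6.97% of all tested genes called higher and 5.92% called lower. Of 10 genes for tubulin modification in the table, 8 passed the filter on low values and none was called, with a median log2 fold change of 1.499 against 0.13 for all genes (0.74 without wildtype replicate 2); the closest were the polyglutamylase-family gene ttll-11 (4.67, adjusted p = 0.0574 in limma; 2.44 without wildtype replicate 2) and the acetyltransferase gene atat-2 (1.98, adjusted p = 0.0648). Of 19 genes for tubulin folding, 1 rose and none fell, a share no larger than that of all genes (median 0.84, and 0.54 without wildtype replicate 2). It was cct-8, a subunit gene of the chaperonin that folds tubulin and actin, at 215.5 ± 69.3 normalised counts in mutant and 10.6 ± 13.4 in wildtype libraries, a log2 fold change of 4.99 that was 3.31 without wildtype replicate 2. Its fellow subunits cct-6 and cct-1 gave 1.28 (adjusted p = 0.122) and 1.13 (adjusted p = 0.163; 0.65 without wildtype replicate 2) on the log2 scale, and the tubulin cofactor gene coel-1 gave -1.37 (adjusted p = 0.112).

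Among 22 microtubule-associated and severing genes, 5 were called higher and 1 lower (median 0.62, and 0.36 without wildtype replicate 2). unc-33, whose CRMP-family product organises axonal microtubules, averaged 677 ± 113 normalised counts in mutant and 92.6 ± 29.8 in wildtype libraries. The CLASP gene cls-3 rose by 2.94 on the log2 scale and the axonal transport gene unc-76 by 2.28. The others, named after their values were seen, were the tau-family gene ptl-1 (2.36) and the EMAP-family gene elp-1 (2.76). mei-2, a subunit gene of the katanin that severs microtubules in oocyte meiosis, averaged 2.07 ± 1.014 normalised counts in mutant and 94.8 ± 83.0 in wildtype libraries. It was the gene called lower (adjusted p = 0.0449 in limma, and 0.0591 with no filter), and since it passed the filter only through the wildtype libraries this is a description. Germline genes as a list were at 0.0184% to 0.0455% of reads in the mutant libraries and 0.331% and 0.111% in wildtype, and their part in this value was not tested. Of 24 motor genes, 8 rose and 1 fell (median 1.02, and 0.91 without wildtype replicate 2). These included the neuronal kinesin gene klp-4 (5316 ± 523 normalised counts in mutant and 887 ± 373 in wildtype libraries), the ciliary dynein gene che-3 (2000.3 ± 1029 and 208 ± 82.2), klp-13 (1837 ± 1042 and 121 ± 16.4) and the ciliary kinesin gene osm-3 (351 ± 32.01 and 34.8 ± 29.7). The kinesin gene klp-15, known from the oocyte meiotic spindle and named after its values were seen, fell by 2.33 on the log2 scale.

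Genes of the neurons that use the special isotypes rose in part or in most. The counts below stand beside 6.97% of all tested genes called higher and 5.92% called lower. The rise was not particular to these neurons. Of the 16 pan-neuronal genes, 4 were called higher and 0 lower, with a median log2 fold change of 3.47 (2.05 without wildtype replicate 2). The kinesin gene unc-104 is in both this list and the motor list, and its call is counted in both. Of 12 touch receptor neuron genes, which share the acetyltransferase gene mec-17 with the modification list, 5 rose and none fell (median 2.79, and 1.91 without wildtype replicate 2). mec-3, the homeobox gene that sets touch neuron fate, averaged 1574 ± 289 normalised counts in mutant and 236.9 ± 2.94 in wildtype libraries, a log2 fold change of 2.71 (SE 0.39, adjusted p = 0.0382 in limma). The stomatin gene mec-2, needed for the touch channel, averaged 1920 ± 224 and 419 ± 170, and unc-24 and unc-86 rose by 3.51 and 4.22 on the log2 scale (unc-86 by 2.70 without wildtype replicate 2). The touch neuron gene mec-18, named after its values were seen, rose by 2.87. Of 31 sensory cilia genes in the table, 29 passed the filter, and 20 of these rose and none fell (median 4.61, and 3.01 without wildtype replicate 2). osm-5, an intraflagellar transport gene, averaged 4270 ± 1900 normalised counts in mutant and 187 ± 140 in wildtype libraries, and bbs-2, che-11 and ifta-2 rose by 4.001, 4.86 and 3.24 on the log2 scale. Every called gene of the folding, microtubule-associated, motor, touch receptor neuron and cilia lists lost the call without mutant replicate 1 and without mutant replicate 3. Without wildtype replicate 2, 1 of the 20 cilia genes and 0 of the genes called in the other lists kept it.

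Genes whose pattern over the 5 libraries was most like that of the leading member of each class were found by the root mean square difference of centred log2 values, among 6788 other genes averaging 100 or more normalised counts. For mec-12 these were ins-3, an insulin-like peptide gene (0.12), mec-7 (0.18) and T03F6.9 (0.18), and 197 genes lay within 0.5. The genes most like tba-9 were kap-1, the kinesin-II accessory subunit gene (0.11), B0563.6 (0.11) and T27A10.2 (0.14), with 342 genes within 0.5. tbb-2 was matched most closely by cec-1 (0.08), unc-51 (0.09) and ntl-3 (0.11), with 690 genes within 0.5. Between the members themselves, mec-7 lay 0.17 from tba-9 and 0.18 from mec-12, and tba-2 lay 0.22 from tbb-2. With 5 libraries of 2 genotypes such closeness is common, as the counts show.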

How the data were processed

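Per the labels, neurons were dissociated and sorted from synchronised animals, and polyadenylated RNA was made into libraries with SMARTR v4 and Nextera XT kits. The submitters' processing notes name Trim Galore, STAR 2.4.2a, DESeq2 and the build ce10; which read counter and gene annotation were used is not given in the sources used here. What the authors deposited was 1 table, whose per-library values are a signal, gene counts divided by a size factor per library; dividing by the value of 1 read gave whole reads for 100% of values (tolerance 1e-04). From these reads, none of the 13787 kept genes was called by edgeR (0), while DESeq2 put 2050 above and 1551 below wildtype. The table also holds the authors' deposited log2 fold change with its standard error, test score, p-value and adjusted p-value.

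Groups were compared with limma 3.58.1 (trend, R 4.3.3) on log2(normalised count + 1), two-sided, with edgeR 4.0.16 and DESeq2 1.42.0 on recovered reads as alternatives, beside quantile or upper quartile scaling, a pseudocount of 0.5 or 8, a filter set to 50 or dropped, replicate number as a block, the deposited adjusted p-values and leaving out each library. The scripts were tested on simulated counts. Exon lengths and positions come from Ensembl's WBcel235 annotation by gene name; no ce10 position and no sequence is given. The table held 199 of the 205 list entries. The members, classes, lists and pairs were chosen with earlier results of these data known. Named genes are all tubulins, thoc-5 and the 3 genes most like the leading member of each class. Every microtubule or neuron list except the pan-neuronal markers adds its 4 of lowest p (2 where none passed). ptl-1, elp-1, klp-15 and mec-18 fall outside this rule, as do the genes named from the pan-neuronal, muscle and epidermis lists. With no molecular identifiers, floors and intervals reflect counting error alone.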

Additional observations from a re-analysis of the deposited data

How the results depend on the processing

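The count of tubulin members called higher in limma, 1 by the main settings, was 0 with a replicate block and in edgeR, 3 with a pseudocount of 8, 4 with quantile scaling, in DESeq2 and in the authors' deposited table, and 0 to 6 when 1 library was left out; the cause of these moves was not tested. Over all genes, 961 higher and 816 lower became 0 and 0 with the replicate block and in edgeR, 1737 and 1480 with a pseudocount of 8, 1573 and 1425 with quantile scaling, 2050 and 1551 in DESeq2 and 2044 and 1553 in the authors' deposited table. Without a filter 533 were called higher, and leaving out 1 library, with the filter applied again, gave 0 to 2503 higher and 0 to 670 lower. Where 1 wildtype library was left out, the remaining one was taken to vary as the mutant libraries do. Whether same-numbered libraries were prepared together is not given in the labels. Across genes, replicate 1 minus 2 in the mutant correlated with that in wildtype at 0.07. This cannot settle the question, because wildtype replicate 2 stood apart in its neuronal share. Leaving out wildtype replicate 2 gave log2 fold changes of -0.26 for tbb-1 and -0.41 for tba-7, the lowest values with 1 library left out; the highest were 0.60 and 2.29, without wildtype replicate 1. tba-8, at 0.26 by the main settings, was -0.13 with the replicate block, -0.57 with a pseudocount of 8, -0.69 with quantile scaling, -2.12 in edgeR, -1.95 in DESeq2, -1.50 in the authors' deposited table, and -3.75 to 4.27 with 1 library left out (below 0 without mutant replicate 1, mutant replicate 3 or wildtype replicate 2). The other 9 members kept their direction under every alternative run. The median of all genes was 0.13, and 0.04 and -0.02 with upper quartile and quantile scaling. With 2 wildtype libraries, 1 of them nearly without reads of tba-6 and tbb-4, the size of those fold changes is poorly fixed.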
